A study of Homo sapiens with 12 samples.

Results

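The genes described here encode 8 components of the red cell membrane skeleton and of the red cell surface, namely ANK1, SPTB, EPB41, EPB42, SLC4A1, GYPB, KEL and TMOD1. They were chosen by name, with earlier results of these data known, from the genes counted in KBM7 and K562 cells. There were 26226 genes counted in KBM7 and 28328 in K562, of which 23238 were counted in both. All 8 had a row in both tables. RNA-seq was carried out on these human chronic myeloid leukemia lines, both established from blast crisis disease, at 72 h after transfection of either an siRNA pool against the deubiquitinase USP15 (siUSP15) or a pool with no target (siCtrl). There were 2 siUSP15 and 2 siCtrl libraries of KBM7 and 4 siUSP15 and 4 siCtrl libraries of K562. Because 1 pool was used per arm, loss of USP15 and other effects of the pool cannot be told apart. No source states that the libraries of a group came from separate cultures, so p-values measure only the spread between these libraries, which may be technical.

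Red cells keep their shape through a lattice of spectrin tetramers under the lipid bilayer. Ankyrin, encoded by ANK1, ties beta spectrin (SPTB) to the anion exchanger band 3 (SLC4A1), and protein 4.2 (EPB42) binds both band 3 and ankyrin. Protein 4.1 (EPB41) fastens spectrin to short actin filaments, whose pointed ends are capped by tropomodulin 1 (TMOD1). GYPB carries the S and s blood group antigens, and KEL is the endopeptidase-like glycoprotein that bears the Kell antigens. In the erythroid lineage many of these genes are switched on under GATA1 and KLF1. K562 cells are known for erythroid features, including embryonic and fetal globin transcripts.

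The sequences upstream of KEL, EPB42 and SPTB are shown because these were among the genes that fell furthest in KBM7 and because each window holds 2 words of the type bound by GATA factors. They are the 250 bases before the annotated start, 5′ to 3′ on the gene's strand, from RefSeq on GRCh38.p14. Capitals mark AGATAA or the same word with T first, G last, or both, on either strand, so that CTATCT is AGATAG read from the other strand. The windows are chr7:142962364-142962613, chr15:43221019-43221268 and chr14:64879908-64880157, all on the minus strand.
KEL: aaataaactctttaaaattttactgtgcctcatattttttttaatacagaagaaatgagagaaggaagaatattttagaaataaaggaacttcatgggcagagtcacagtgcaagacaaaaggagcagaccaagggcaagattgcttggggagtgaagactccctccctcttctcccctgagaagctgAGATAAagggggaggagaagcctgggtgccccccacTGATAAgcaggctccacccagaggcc
EPB42: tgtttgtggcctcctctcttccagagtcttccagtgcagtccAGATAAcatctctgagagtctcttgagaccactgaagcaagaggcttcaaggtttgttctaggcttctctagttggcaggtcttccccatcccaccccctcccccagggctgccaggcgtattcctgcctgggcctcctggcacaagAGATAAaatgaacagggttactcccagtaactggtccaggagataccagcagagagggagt
SPTB: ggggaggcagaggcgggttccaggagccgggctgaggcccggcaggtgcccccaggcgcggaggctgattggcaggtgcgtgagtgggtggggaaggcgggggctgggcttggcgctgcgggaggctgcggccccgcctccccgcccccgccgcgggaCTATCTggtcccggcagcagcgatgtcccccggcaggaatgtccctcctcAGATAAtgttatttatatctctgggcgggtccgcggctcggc
In KEL the matches began 62 and 26 bases before the start, in EPB42 208 and 61 bases before it, and in SPTB 92 and 42 bases before it. A second SPTB window, at chr14:64823381-64823630, held none. Over the 6 members searched (EPB41, EPB42, GYPB, KEL, SPTB and TMOD1), 6 of 10 windows and 5 of 6 genes had a match, TMOD1 being the gene without one. The windows of ANK1 were left out of the search and are not reported here, and SLC4A1 had no entry, so neither enters these counts. The GYPB windows overlap and share a match, and the share of genes with a match was not computed over all genes. Among 35114 windows of this length, 22.3% held such a word and 4.96% held at least 2. The windows shown were picked for holding 2, so the latter share is no test of them. CCNCNCCC, a word of the type bound by KLF factors, stood on either strand in 7 of the 10 windows and in 53.4% of all windows. A match describes the letters only and is not evidence of binding.

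Total counts lay between 23450607 and 29441118 per library in KBM7 and between 23020401 and 43566543 in K562. Levels are given as normalized CPM, counts scaled to a common library total with factors set over all 12 libraries. USP15 stood at 106.3 and 107.5 CPM in siUSP15 KBM7, against 197.1 and 201.8 CPM in siCtrl KBM7, so that 53.6% was left. In this design of 2 against 2 the exact two-sided permutation p was 0.333, the smallest it allows. In K562, USP15 averaged 52.4% of its siCtrl level, with no overlap between the 4 siUSP15 and the 4 siCtrl libraries (exact two-sided permutation p = 0.0286). K562 replicates 1 and 2 of each arm stood apart from replicates 3 and 4, with 4.83% to 5.43% of counts from mitochondrial genes, against 3.2% to 3.27% in replicates 3 and 4. The labels call the K562 table batch corrected without naming the batches, and these sets enter the K562 model as a term.

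In KBM7 the genes for ankyrin, beta spectrin and protein 4.2, which tie the skeleton to band 3, were among the members that fell most after USP15 depletion, together with KEL. ANK1 (ENSG00000029534, chromosome 8, 41653220 to 41896762 on the minus strand of hg38), the linker between spectrin and band 3, measured 4.05 and 6.64 CPM with siUSP15, against 27.1 and 31.3 CPM with siCtrl. Both siUSP15 libraries lay far below both siCtrl libraries. Its log2 fold change was -2.48 (SE 0.155, adjusted p = 7.4e-07 from edgeR's quasi-likelihood test), which left 18.3% of the siCtrl level. SPTB (ENSG00000070182, chromosome 14, 64746283 to 64879883, minus strand), the beta chain of the erythroid spectrin tetramer, measured 2.67 and 4.09 CPM with siUSP15, against 12.3 and 15.01 CPM with siCtrl. The groups did not overlap here either, and replicate 1 was the lower library of each arm for both ANK1 and SPTB. SPTB fell by 2.03 on the log2 scale (SE 0.171, adjusted p = 6.45e-06 from edgeR). In bulk samples, fewer cells of a type and less RNA per cell cannot be told apart.

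EPB42 (ENSG00000166947, chromosome 15, 43106225 to 43221283, minus strand), whose protein 4.2 stabilises the band 3 and ankyrin complex, was a low-count gene in KBM7, with 3 and 10 counts in the siUSP15 libraries, against 38 and 47 counts in the siCtrl libraries. These correspond to 0.0989 and 0.397 CPM with siUSP15, against 1.23 and 1.86 CPM with siCtrl. The groups were separate, but the siUSP15 replicates differed widely between themselves. EPB42 had a log2 fold change of -2.68 (SE 0.447, adjusted p = 0.000987 from edgeR), the lowest of the tested members. Without siUSP15 replicate 1 it was -1.92, and without siUSP15 replicate 2 it was -3.89, so the size of this fall depends on which of these libraries is kept while the call does not.

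The 2 actin-side components changed less in KBM7. EPB41 (ENSG00000159023, chromosome 1, 28887091 to 29120046, plus strand), the protein 4.1 gene that many tissues also transcribe, measured 468.4 and 491.7 CPM with siUSP15, against 604.7 and 572.5 CPM with siCtrl. The 4 libraries separated by arm, and 81.6% of the siCtrl level was left (log2 fold change -0.30, SE 0.0459, adjusted p = 0.000535 from edgeR). TMOD1 (ENSG00000136842, chromosome 9, 97501180 to 97601748, plus strand), the pointed-end cap of the short actin filaments, measured 3.39 and 3.22 CPM with siUSP15, against 4.47 and 5.23 CPM with siCtrl. Its siUSP15 libraries were close together and both below siCtrl, and TMOD1 fell by 0.55 on the log2 scale (SE 0.152, adjusted p = 0.0187 from edgeR). That call was lost with DESeq2 (adjusted p = 0.125) and without siCtrl replicate 2 (adjusted p = 0.132 from edgeR).

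Among the surface proteins, KEL (ENSG00000197993, chromosome 7, 142941114 to 142962681, minus strand), the Kell blood group glycoprotein, had 9 counts in each siUSP15 library of KBM7, against 51 and 40 counts in the siCtrl libraries. In CPM this was 0.297 and 0.358 with siUSP15, against 1.65 and 1.58 with siCtrl. The replicates of each arm were close and the arms far apart, and KEL fell by 2.31 on the log2 scale (SE 0.298, adjusted p = 0.000152 from edgeR). SLC4A1 (ENSG00000004939, chromosome 17, 44248385 to 44268141, minus strand), band 3, had 13 and 14 counts with siUSP15, against 29 and 32 counts with siCtrl, or 0.428 and 0.556 CPM against 0.939 and 1.27 CPM. The arms did not overlap, and the log2 fold change was -1.16 (SE 0.318, adjusted p = 0.0174 from edgeR). The SLC4A1 call was lost with DESeq2 (adjusted p = 0.164), without siCtrl replicate 2 (0.155, edgeR), without siUSP15 replicate 1 (0.11, edgeR) and with all 12 libraries in 1 fit (0.0842, edgeR). GYPB (ENSG00000250361, chromosome 4, 143996104 to 144019345, minus strand), glycophorin B, was near the detection limit in KBM7, with 1 and 0 counts with siUSP15, against 3 and 5 with siCtrl. The ratio of the summed counts, 1 against 8, was 0.126 (exact 95% interval 0.00285 to 0.943, counting error only). It was too low to be tested with the others, and with no filter on low counts its adjusted p was 0.22 (edgeR). GYPB also shares near-identical sequence with GYPE, so its count is uncertain.

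**Figure D1:**
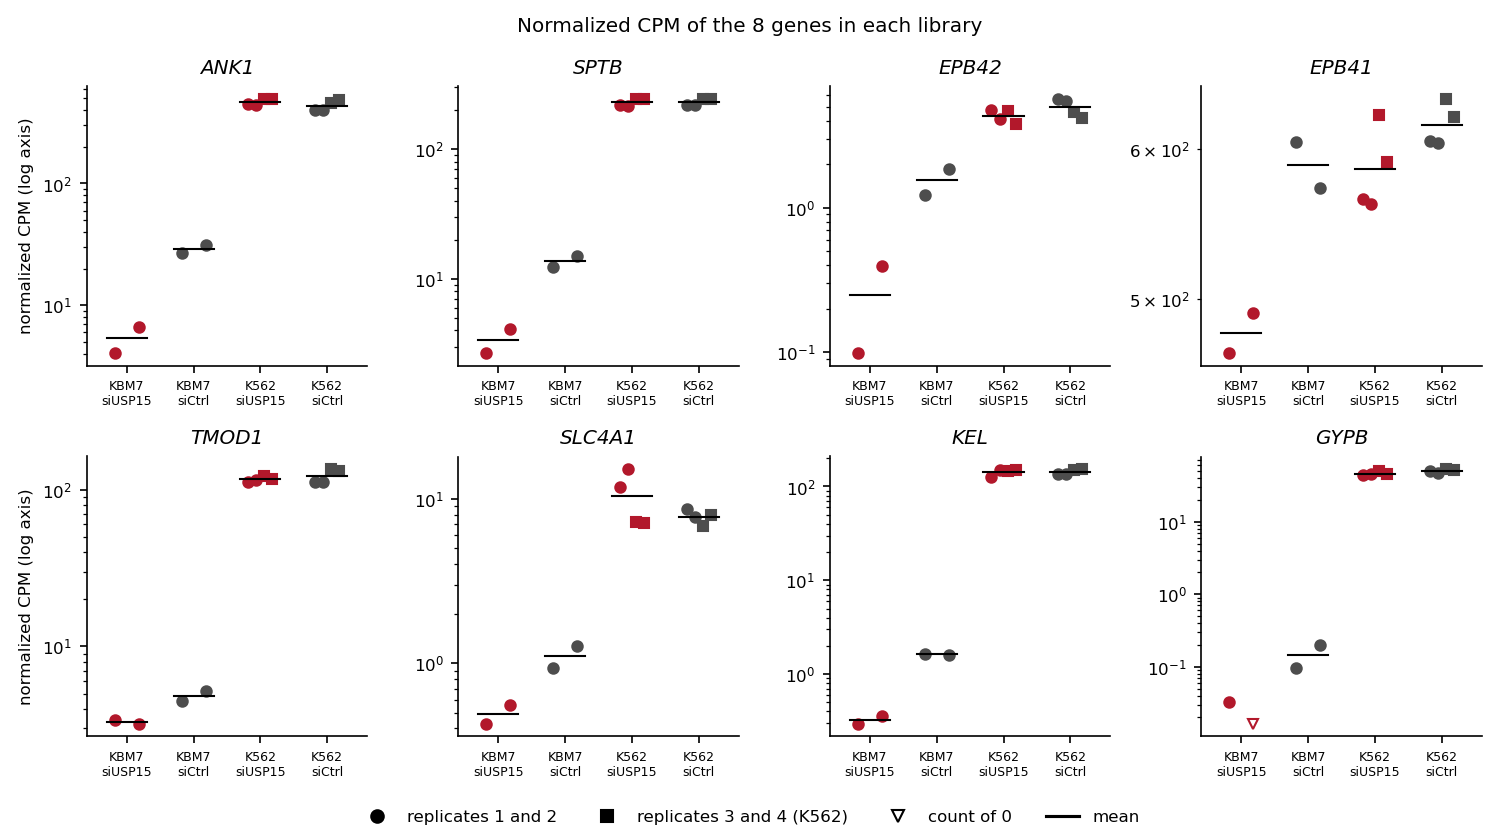
Normalized CPM (log axis) of the 8 members in each library, siUSP15 left of siCtrl in KBM7 (n = 2 each) and in K562 (n = 4 each), with points for libraries. In KBM7 all siUSP15 points lie below the siCtrl points, for ANK1 at 4.05 and 6.64 against 27.1 and 31.3 CPM, whereas in K562 the arms overlap in all 8 genes.

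All 7 members that passed the filter on low counts were lower with siUSP15 in KBM7, and none was higher. Over all 14980 genes tested in KBM7, 15.9% were called lower and 29.0% were called in either direction at an adjusted p under 0.05. The median log2 fold change of the 7 was -2.03, against 0.00 over all genes tested. Because the members were chosen with earlier results of these data known, these values describe the members and are no independent test of them. ANK1, SPTB, EPB42 and KEL were 4 of the 53 genes, 0.354% of those tested, that were called with a log2 fold change below -2. Ordered by log2 fold change among the 2376 genes called lower, EPB42 came 20th, ANK1 27th, KEL 37th, SPTB 48th, SLC4A1 192nd, TMOD1 574th and EPB41 1256th. Every siUSP15 library was below every siCtrl library for all 7, as for 32.3% of all genes tested. The same held for the untested GYPB, but on 1 and 0 counts against 3 and 5. Exons of SPTB and TMOD1 overlap opposite-strand genes, PLEKHG3 over 3408 bases and TSTD2 over 1664 bases, and the sources do not state whether strand was used in counting. PLEKHG3 differed by -0.02 (adjusted p = 0.823) and TSTD2 by 0.01 (adjusted p = 0.87) on the log2 scale in KBM7 (edgeR), and neither passed.

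Markers of the lineages that these cells can resemble moved in the same KBM7 libraries. Of 9 erythroid markers 5 were tested and 4 fell: the embryonic and fetal globins HBE1 (-3.04) and HBG2 (-2.67), the heme enzyme gene ALAS2 (-1.87) and the transferrin receptor TFRC (-0.20, all log2 fold changes). The summed level of all 9 was 706.2 to 762.5 CPM with siUSP15, against 904.8 to 905.7 CPM with siCtrl. Most of this sum was TFRC, with a mean of 720.0 CPM with siUSP15 and 824.5 CPM with siCtrl. Of 7 granulocytic and monocytic markers 5 were tested, of which MPO (1.54), PRTN3 (1.42), CSF1R (1.28) and AZU1 (1.01) rose and CD33 (-0.24) fell, with sums of 115.3 to 115.8 CPM against 102.2 to 106.6 CPM. Most of these sums was CD33, with a mean of 76.2 CPM with siUSP15 and 89.6 CPM with siCtrl. CD14 was at 0 in both siUSP15 libraries. Of 6 megakaryocytic markers 4 were tested and 1, ITGA2B (-0.51), fell, with sums of 44.6 to 47.7 CPM against 60.8 to 70.9 CPM. Of 2 T cell markers CD3D (-0.72) fell, while none of the 2 tested B cell and of the 1 tested stromal markers passed in edgeR, 0 of them also at an unadjusted p under 0.05. The part of these changes in the members' result was not tested. The mitochondrial share lay between 2.06% and 2.67% in all 4 KBM7 libraries.

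In K562 the members other than EPB41 were more abundant than in KBM7, and the members changed little. With the set term in the model, 1 of 8 members, ANK1, passed, and it was higher with siUSP15, while 15.8% of the 13731 genes tested were called in either direction and 6.88% were called higher. ANK1 measured 446.0, 443.6, 493.1 and 496.3 CPM with siUSP15, against 404.1, 403.9, 455.2 and 480.5 CPM with siCtrl (replicates 1 to 4). Within each set both siUSP15 libraries were above both siCtrl libraries, as for 11.1% of all genes. Over the 4 against 4 the arms overlapped for ANK1 and for the other 7 members, while 4.55% of all genes had every siUSP15 library below and 3.47% had every one above. The log2 fold change of ANK1 was 0.11 (SE 0.0307, adjusted p = 0.034 from edgeR). With the replicate number as a block its adjusted p was 0.0788 in edgeR, and 0 of 8 members passed (4 had an unadjusted p under 0.05), where 7.44% of genes passed. Without the set term it was 0.647, and 0 members and 0.00% of all genes passed, while 0 members and 1447 genes, 10.5%, had an unadjusted p under 0.05. The ANK1 call was also lost without siCtrl replicate 1, 2 or 3 or siUSP15 replicate 1, 2 or 3, with adjusted p between 0.0515 and 0.122 in edgeR, and kept with DESeq2 (0.0199).

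SPTB did not pass in K562, with 218.7, 214.5, 243.0 and 245.5 CPM in siUSP15 libraries, against 218.1, 219.4, 244.3 and 243.3 CPM in siCtrl libraries. The arms overlapped within each set, and the log2 fold change was -0.01 (SE 0.0299, adjusted p = 0.915 from edgeR). KEL had a log2 fold change of -0.01 (SE 0.047), TMOD1 of -0.06 (SE 0.04) and EPB41 of -0.08 (SE 0.0306), none of which passed. GYPB measured 43.9, 45.5, 49.8 and 45.4 CPM with siUSP15, against 49.3, 47.3, 52.9 and 51.8 CPM with siCtrl. Within each set both siUSP15 libraries were below both siCtrl libraries, as for 13.9% of all genes, but the log2 fold change of -0.12 (SE 0.0405) had an adjusted p of 0.0575 in edgeR. The near-identical GYPE (-0.28) did pass as lower in K562. EPB42 remained a low-level gene, at 3.79 to 4.76 CPM with siUSP15 and 4.21 to 5.68 CPM with siCtrl, with a log2 fold change of -0.21 (SE 0.115, adjusted p = 0.237 from edgeR). The median log2 fold change of the 8 members in K562 was -0.04, against 0.00 over all genes tested. Of 9 erythroid markers tested in K562, 1 was higher, TFRC (0.20), and 1 was lower, with summed levels of 4545 to 5588 CPM with siUSP15, against 4356 to 5706 CPM with siCtrl, and their part in the members' values was not tested.

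**Figure D2:**
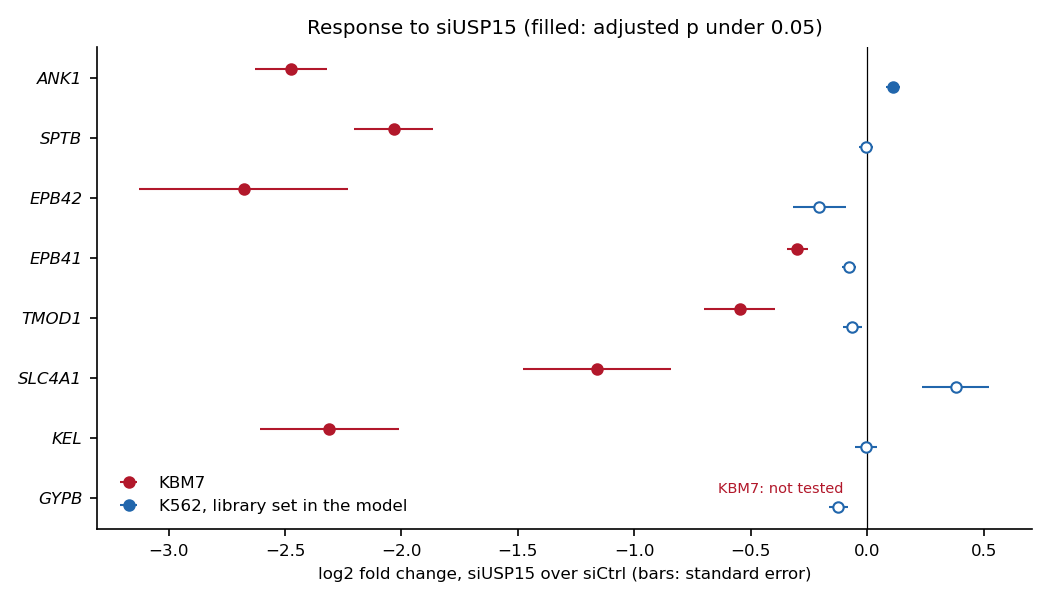
Log2 fold change (siUSP15 over siCtrl) of each member in KBM7 and in K562 with its SE, from the edgeR fit of each line. The KBM7 values of the 7 tested members lie between -2.68 and -0.30, and the K562 values of all 8 lie between -0.21 and 0.38.

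SLC4A1 was the member whose K562 response depended on the library set. It measured 11.9, 15.2, 7.25 and 7.19 CPM with siUSP15, against 8.67, 7.81, 6.85 and 7.94 CPM with siCtrl (replicates 1 to 4). In replicates 1 and 2 both siUSP15 libraries were above both siCtrl libraries, and in replicates 3 and 4 the arms overlapped. The siUSP15 mean was 97.6% of siCtrl in replicates 3 and 4 and 164.2% in replicates 1 and 2. The log2 fold change was -0.03 (adjusted p = 0.935) in replicates 3 and 4 and 0.74 (SE 0.126, adjusted p = 0.000903) in replicates 1 and 2, fitted alone with edgeR. The difference between the sets was -0.76 (SE 0.182, adjusted p = 0.0127 from edgeR), and SLC4A1 was the 1 member of 8 that passed this test, as did 12.7% of the 14337 genes tested in either direction. That call was lost without siCtrl replicate 2 (adjusted p = 0.0561), siUSP15 replicate 2 (0.0701) or siCtrl replicate 4 (0.0639, all edgeR).

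Replicates 3 and 4 alone gave 0 of 8 members called in edgeR (3 at an unadjusted p under 0.05), where 2.01% of genes passed, and replicates 1 and 2 alone gave 3 of 8, where 34.4% passed. The 3 were SLC4A1, ANK1 (0.14, adjusted p = 0.0108) and EPB41 (-0.11, adjusted p = 0.0324, edgeR). TMOD1 differed by -0.15 in replicates 3 and 4 and by 0.03 in replicates 1 and 2, and the difference between the sets was -0.17 (adjusted p = 0.0619 from edgeR). The depletion of USP15 itself was weaker in replicates 3 and 4, where 57.3% was left, than in replicates 1 and 2, where 46.3% was left (log2 difference 0.31, edgeR adjusted p = 0.0134). Whether depletion and the SLC4A1 response are linked was not tested.

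**Figure D3:**
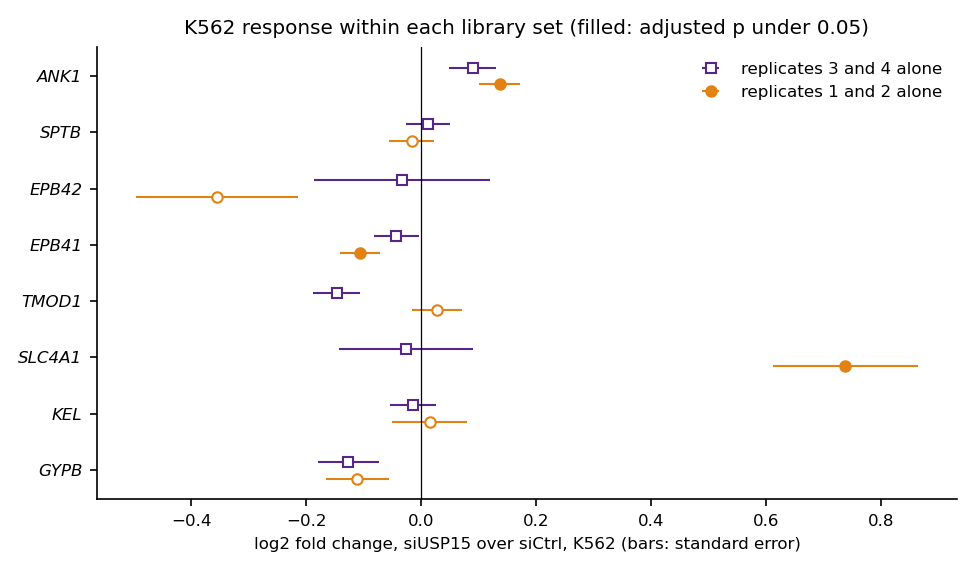
Log2 fold change (siUSP15 over siCtrl) of each member in K562, fitted in replicates 3 and 4 alone and in replicates 1 and 2 alone, with its SE. SLC4A1 stands at -0.03 in replicates 3 and 4 and at 0.74 in replicates 1 and 2, and in replicates 1 and 2 the other members lie closer to 0.

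The responses of the lines were then compared directly, as the KBM7 response minus the K562 response. Of 8 members 7 passed, all with the lower response in KBM7, where 8.03% of the 15833 genes tested passed in that direction and 16.0% in either. The difference was -2.58 for ANK1 (SE 0.139, adjusted p = 5.62e-09), -2.02 for SPTB (SE 0.141, adjusted p = 6.94e-08), -2.47 for EPB42 (SE 0.45, adjusted p = 0.00125) and -2.30 for KEL (SE 0.307, adjusted p = 7.62e-05) in edgeR. These 4 genes passed in all 17 alternative fits. The difference was -1.54 for SLC4A1 (adjusted p = 0.0335), -0.48 for TMOD1 (adjusted p = 0.0268) and -0.22 for EPB41 (adjusted p = 0.019, edgeR). Without the set term these 3 calls were lost and 4 of 8 members passed. All 3 were also lost without KBM7 siUSP15 replicate 1, SLC4A1 without any 1 of the KBM7 libraries, TMOD1 without siCtrl replicate 2 or siUSP15 replicate 2 of KBM7, and EPB41 without KBM7 siCtrl replicate 1. With limma-voom, SLC4A1 (adjusted p = 0.0776) and TMOD1 (0.105) did not pass. GYPB, with 0 counts in 1 KBM7 library, did not pass (adjusted p = 0.0878 from edgeR).

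At baseline 7 of 8 members were lower in KBM7 siCtrl than in K562 siCtrl, and 41.0% of all genes tested were called lower and 83.7% in either direction. GYPB differed the most, with a log2 difference of -8.42 (SE 0.154, adjusted p = 4.76e-19), followed by KEL at -6.46 (SE 0.103), TMOD1 at -4.66 (SE 0.0817), SPTB at -4.09 (SE 0.0833) and ANK1 at -3.90 (SE 0.0899, edgeR). By group means, K562 held 341-fold more GYPB, 88.6-fold more KEL and 14.9-fold more ANK1 than KBM7. In the KBM7 siCtrl libraries GYPB had only 3 and 5 counts, and KEL 51 and 40. The SEs of these 2 genes are smaller than the counting error of so few reads, so their sizes are less certain than printed. SLC4A1 (-2.83) and EPB42 (-1.70) differed less, and EPB41 (-0.07, adjusted p = 0.133 from edgeR) did not pass. The median over the 8 members was -3.99, against 0.01 over all genes tested. The labels of KBM7 and K562 carry different number prefixes, whose meaning no source states, so cell line and any batch these mark cannot be told apart.

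Per length of exon, EPB41 led the members in KBM7 siCtrl at 29.4 ± 1.14 RPKM (CPM divided by exon length in kilobases, SD, n = 2). ANK1 followed at 2.66 ± 0.274, TMOD1 at 1.32 ± 0.146, SPTB at 0.923 ± 0.129, EPB42 at 0.527 ± 0.152, KEL at 0.442 ± 0.013, SLC4A1 at 0.215 ± 0.0453 and GYPB at 0.0774 ± 0.0374 RPKM. Of these neighbours in the order, EPB42 and KEL overlapped between libraries and the others did not. In K562 siCtrl the order was led by ANK1 at 39.6 ± 3.48 RPKM and KEL at 39.1 ± 2.34 RPKM (SD, n = 4), which overlapped. TMOD1 (33.3 ± 3.37) and EPB41 (30.9 ± 0.793) came next and also overlapped, then GYPB (26.4 ± 1.31) and SPTB (15.6 ± 0.981). EPB42 (1.70 ± 0.239) and SLC4A1 (1.53 ± 0.146) were last, with overlapping libraries. EPB42 and SLC4A1 were thus below every other member in K562 and among the lower ones in KBM7.

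**Figure D4:**
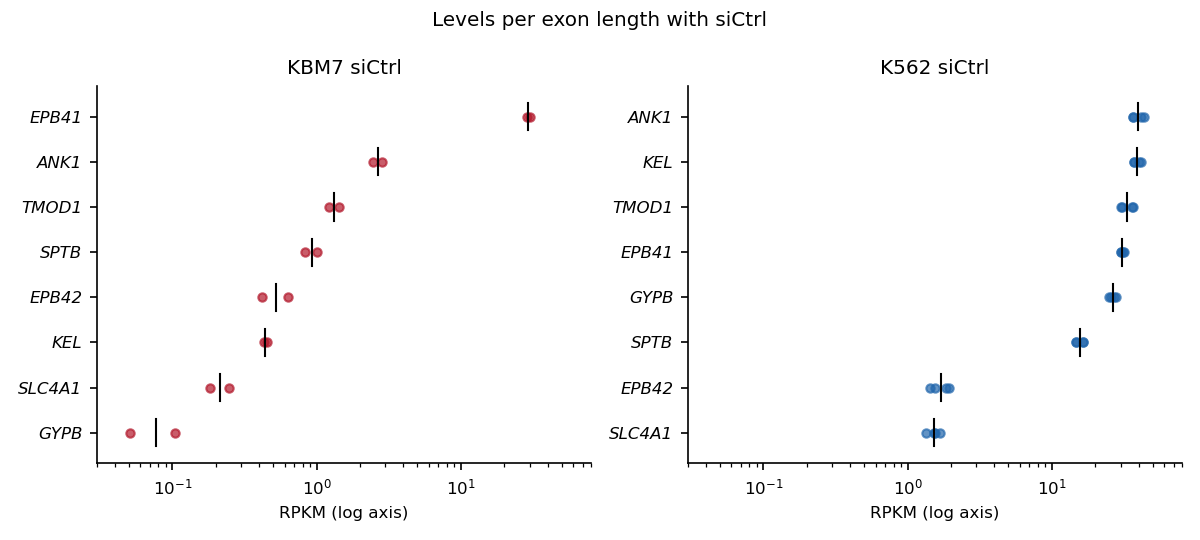
Level of each member per exon length (RPKM, log axis) in the siCtrl libraries, KBM7 (n = 2) left of K562 (n = 4), with points for libraries. EPB41 stands near 30 RPKM in both lines (29.4 in KBM7 and 30.9 in K562), and GYPB is the gene furthest apart (0.0774 in KBM7 and 26.4 in K562).

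Other genes of the red cell membrane changed in both directions in KBM7. Of 45 listed genes 34 were tested in KBM7, of which 8 were higher and 10 lower, with a median log2 fold change of -0.03. The 18 calls became 10 with DESeq2, without siCtrl replicate 1 or without siCtrl replicate 2. Lower were the Rh-associated glycoprotein RHAG (-0.51), the semaphorin SEMA7A (-0.34), the membrane palmitoylated protein MPP1 that binds protein 4.1 (-0.38), the water and glycerol channel AQP3 (-0.53), the Kell partner XK (-0.44), carbonic anhydrase CA2 (-0.32) and the glucose transporter SLC2A1 (-0.19). Higher were CD47 (0.28), beta adducin ADD2 (0.55), the tropomyosin TPM3 (0.19), CD44 (0.17) and ERMAP (0.30). In K562, 5 of 38 tested were higher and 7 lower, with a median of 0.04. These 12 calls became 7 with the replicate block, 0 without the set term, and 5 without siCtrl replicate 1, siCtrl replicate 2 or siUSP15 replicate 1. Among those higher were the water channel AQP1 (0.92), CD59 (0.20), ADD2 (0.27) and BSG (0.20), and among those lower were GYPE, dematin DMTN (-0.43), RHCE (-0.60), RHD (-0.29), gamma adducin ADD3 (-0.20) and XK (-0.13). RHCE and RHD are near-identical copies, and their counts are uncertain.

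Paralogs of the members were likewise divided. Some were well transcribed in these lines, such as SLC4A2, with siCtrl means of 177.9 CPM in KBM7 and 460.8 CPM in K562. Of 18 tested in KBM7, 4 were higher, among them EPB41L3 (0.37) and the anion exchanger SLC4A3 (0.96), and 4 were lower, among them SLC4A2 (-0.34), the endopeptidase MME (-0.87) and EPB41L4A (-1.83), with a median of 0.01. Of 17 tested in K562, 2 were higher, among them the transglutaminase TGM2 (0.21), and 3 were lower, namely EPB41L2 (-0.28), TMOD2 (-0.96) and EPB41L5 (-0.25), with a median of -0.01. With the replicate block EPB41L5 did not pass (adjusted p = 0.0524 from edgeR), and without the set term 0 of the 17 passed (4 at an unadjusted p under 0.05). Of the 8 listed erythroid transcription factors and partners, 7 were lower in KBM7, with a median of -0.46. KLF1 fell by 2.79 on the log2 scale (SE 0.37, adjusted p = 0.000189 from edgeR), and GFI1B (-0.91), GATA1 (-0.80), TAL1 (-0.49), ZFPM1 (-0.43), NFE2 (-0.40) and LDB1 (-0.19) followed, while LMO2 (0.10) did not pass. In K562, ZFPM1 (0.40) and LDB1 (0.17) were higher, none of the 8 was lower in edgeR (1 at an unadjusted p under 0.05), and the median was 0.12. With the replicate block 1 of the 8 was higher.

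**Figure D5:**
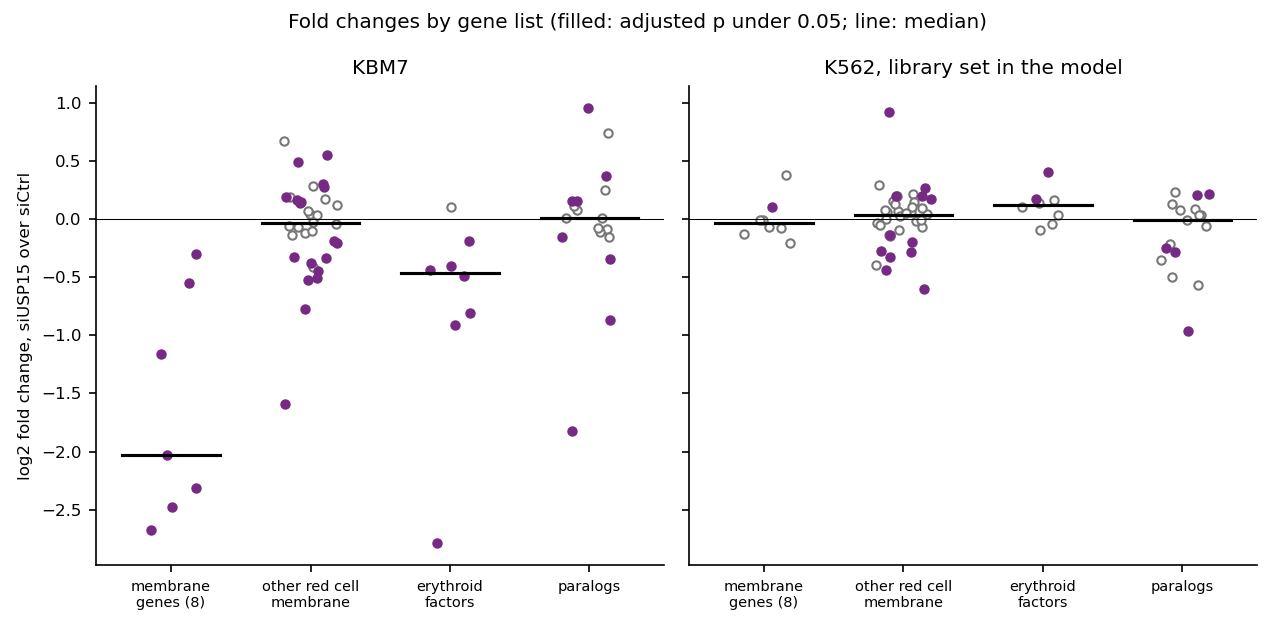
Log2 fold change (siUSP15 over siCtrl) of the members, other red cell membrane genes, paralogs and erythroid factors in KBM7 and in K562, with a point for each tested gene and a line at the median. In KBM7 the medians are -2.03 for the members, -0.03 for other membrane genes, 0.01 for paralogs and -0.46 for the factors. Members and lists were chosen with earlier results of these data known, so the contrast between them is a description only.

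The members' profiles over the 12 libraries, taken as log2 CPM minus the siCtrl mean of the same line and set, were set against those of 10208 genes kept in both lines. The gene most like ANK1 was SPTB (r = 0.9975), followed by LMBRD2 (0.9971) and LEPR (0.9968), and those most like SPTB were LEPR (0.9977), ANK1 and HBE1 (0.9958). KEL was most like GATA2 (0.9936), CDC14A (0.9932) and SLC29A2 (0.9920), and EPB42 most like AKR1C3 (0.9872), MPP1 (0.9856) and CTTN (0.9840). EPB41 was closest to ACLY (0.9841), XK (0.9834) and GTF2A1 (0.9831), SLC4A1 to genes that included ZBTB12 (0.9869) and ZFP91 (0.9797), and TMOD1 to NADK2 (0.9744), PER3 (0.9660) and PPM1D (0.9602). Between members, r lay between 0.597 (EPB41 and SLC4A1) and 0.997 (ANK1 and SPTB). These values are descriptions over n = 12 libraries, which share their arms and sets. For ANK1, SPTB, KEL and EPB42 the 2 KBM7 siUSP15 libraries lie far from the other 10, so their r values rest largely on those 2.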

How the data were processed

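Total RNA of KBM7 and K562 cells was prepared with the TruSeq RNA protocol, and the authors aligned reads to hg38 with TopHat2 2.1.0 against Ensembl annotation 77. Raw counts, 1 per gene and library, are what the deposited tables hold. The labels name HTSeq for counting and edgeR and limma for testing, while the study's methods name Itreecount and DEGseq, and no source states whether strand was used. The K562 table is labelled as batch corrected but holds whole-number counts. Columns of the authors' own comparisons were not used.

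Counts were tested with edgeR 4.0.16 (quasi-likelihood, TMM, filterByExpr, R 4.3.3), 2-sided, with Benjamini-Hochberg adjustment over all genes tested and a threshold of 0.05. The SE given is the size of the log2 fold change divided by the square root of the test's F statistic. It can be smaller than the counting error where counts are few. KBM7 and K562 had separate fits, K562 with the library set (replicates 1 and 2, replicates 3 and 4) as a term. The difference between lines and the baseline were fitted on all 12 libraries. RPKM used exon lengths of GENCODE release 44, not the authors' annotation. DESeq2 1.42.0, limma-voom (limma 3.58.1), other size factors, no filter, the replicate block and leaving out each library were alternatives. On simulated counts for KBM7 (14679 genes), 86.5% of genes given a log2 change of 1 were recovered, and 73.9% of those given 0.5. Smaller changes, such as that of EPB41, were not simulated. Of the calls 10.8% were false, more than the threshold of 0.05 aims at. No 2 libraries agreed within sampling noise (chi-square per degree of freedom between 1.87 and 64.5).

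Same-numbered siUSP15 and siCtrl libraries of K562 deviated together (r between 0.536 and 0.681 over the 4 pairs). Libraries of the same set with different numbers did so as much (r between 0.533 and 0.687). The numbers thus showed no pairing beyond the set, and the main K562 fit did not pair by number. The replicate block, which does, was an alternative. For the 2 KBM7 pairs r was 0.00463, so these share only a number. The genes named were the members, USP15, up to 12 other red cell membrane genes and up to 5 paralogs with the lowest p per line among those past the threshold, and the 3 genes most like each member, a few of which are not reported here. Marker lists and erythroid factors were given as lists, and those of their genes that are named were picked for passing the test. The members, the lists and the set term were chosen with earlier results of these data known.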

Additional observations from a re-analysis of the deposited data

Results flagged for a closer look

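Of 18 groups of 4 libraries examined, 1 held a library far from the rest. KEL stood at 124.7 CPM in K562 siUSP15 replicate 1, below the other 3 siUSP15 libraries, which lay between 147.3 and 149.2 CPM. Chance gives such a library in about 1 group of 20.

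By the interaction test, 7 members responded unlike in the cell lines. The KBM7 response minus the K562 response was -2.58 for ANK1, -2.47 for EPB42, -2.30 for KEL, -2.02 for SPTB, -1.54 for SLC4A1, -0.48 for TMOD1 and -0.22 for EPB41 on the log2 scale. The KBM7 side rests on 2 libraries per arm.

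The response in K562 differed between the library sets for SLC4A1 and for USP15. Replicates 3 and 4 minus replicates 1 and 2 gave -0.76 for SLC4A1 and 0.31 for USP15 on the log2 scale.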

How the results depend on the processing

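No called value changed sign under any alternative run. Of the values for single genes, 533 kept their side of the threshold, 33 lost it and 8 gained it. In KBM7, 7 members passed, 5 with DESeq2 and 5 to 7 with 1 library left out. Called other membrane genes in KBM7 numbered 18, 10 with DESeq2 and 10 to 21 with 1 library left out. In K562, 1 member passed, with 2 under no filter, 0 without the set term, 0 with all 12 libraries in 1 fit, 3 in replicates 1 and 2 alone, 0 in replicates 3 and 4 alone and 0 to 2 with 1 library left out. The other membrane genes called in K562 numbered 12, with 0 without the set term, 23 in replicates 1 and 2 alone, 1 in replicates 3 and 4 alone and 5 to 14 with 1 library left out. USP15 in K562 was at -0.93 without the set term (adjusted p = 0.183 from edgeR). The difference between lines held 7 members, 4 without the set term and 4 to 7 with 1 library left out, and the K562 set difference held 1, with 2 under no filter and 0 to 2 with 1 library left out. The baseline count of 7 did not move.

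With the replicate block, 0 of 8 members and 7 other membrane genes passed in K562, where 1022 of all genes passed, against 2167 with the set term. In KBM7 the replicate block left the count at 7, and its numbers only name the libraries. Over all genes, edgeR called 4347 and DESeq2 2556 in KBM7, 1820 and 1125 for the K562 set difference, and 2530 for the difference between lines, or 268 without the set term. With 1 library left out these calls ran between 2214 and 5129 in KBM7, 555 and 2639 in K562, 479 and 2794 for the set difference, and 1328 and 2788 between lines. Depth limits GYPB, KEL, SLC4A1 and EPB42 in KBM7, each at 51 counts or fewer per library.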
